A study of Mus musculus with 3 samples.

Results

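The cytosolic ribosomal protein genes encode the proteins of the ribosome that translates nuclear-encoded mRNAs. They were taken from the count tables by symbol, as every gene named Rpl, Rplp, Rps or Rpsa with its number and, for some, a final a, x or l. The rule leaves out the Rps6k kinases and every symbol that marks a pseudogene. It found 81 of the 26887 genes listed, 49 of the large subunit and 32 of the small subunit. Of these, 80 had at least 10 counts in every library, and the exception was Rpl3l.

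The counts come from RNA interactome analysis and sequencing (RIA-seq), in which antisense oligonucleotides to 1 RNA pull that RNA out of a lysate of fixed cells and the RNA that comes with it is sequenced. All 3 libraries were made from undifferentiated mouse E14 embryonic stem (ES) cells of strain 129/Ola, grown without feeder cells and with LIF, and fixed in 1% glutaraldehyde for 10 min. The groups differed in the oligonucleotides, which were directed at Actb mRNA (Actb RIA-seq, the control), at the nuclear noncoding RNA Malat1 (Malat1 RIA-seq) or at Tfrc, the transferrin receptor mRNA (Tfrc RIA-seq). Below, Malat1/Actb, Tfrc/Actb and Malat1/Tfrc stand for the fold, which is the share of the counts of the first library that a gene took, divided by its share in the second. Each group was 1 library of 1 cell line, so no difference between groups has a replicate check, and no p-value is given. Hybridization ran overnight at 37 °C in every group, and an untreated or input library was not analysed here.

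The ribosome is built from ribosomal RNA and one copy of most ribosomal proteins. The small subunit holds the decoding centre, where codons are read, and the large subunit holds the peptidyl transferase centre and the tunnel through which the new chain leaves. The acidic stalk of the large subunit recruits the translation GTPases, and the 5S particle, which holds Rpl5 and Rpl11, joins the large subunit as it is assembled in the nucleolus. The mRNAs of ribosomal proteins are short, abundant and stable. Many begin at a C followed by a run of pyrimidines, the terminal oligopyrimidine (TOP) tract, through which growth signals control their translation. Many of the genes hold small nucleolar RNAs (snoRNAs) in their introns, and most have processed pseudogenes, which are copies of the spliced mRNA put back into the genome.

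The tract is the sequence feature that these mRNAs are known for, so annotated starts were read for the genes named below that carry it. RefSeq (GRCm38.p6) gave 72 starts for 60 of the 81 genes. A tract was taken as C at the first annotated base followed by at least 4 more bases that are C or T, on the transcribed strand only. It stood at 13 of the 72 starts (18.1%), against 2.51% of all 32851 annotated starts. Each line below runs from 10 bases before the annotated start to 15 bases from it, 5′ to 3′ on the transcribed strand, with the run of pyrimidines at the start in capitals.
Rplp2, chr7:141447641-141447665, plus strand: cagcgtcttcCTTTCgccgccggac
Rps6, chr4:86857353-86857377, minus strand: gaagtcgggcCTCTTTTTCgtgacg
Rpl35, chr2:39005117-39005141, minus strand: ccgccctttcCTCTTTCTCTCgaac
Rpl28, chr7:4792955-4792979, plus strand: tctcgtgtctCTCTTTCCgtctccg
Rps27, chr3:90213634-90213658, minus strand: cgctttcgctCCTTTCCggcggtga
Rpl15, chr14:18270972-18270996, minus strand: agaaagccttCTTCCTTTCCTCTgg
The share with a tract describes the annotated starts, which were not checked against the starts that these cells use. Rpl15 is shown for the length of its run (13 nt) and stood at 0.961-fold in Malat1/Actb. The 6 genes did not move as one, since their Malat1/Actb folds ranged from 0.601 (Rpl28) to 1.94 (Rplp2).

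The library totals were 10405209 counts (Actb RIA-seq), 10078439 counts (Malat1 RIA-seq) and 14553941 counts (Tfrc RIA-seq), and 3 counts, the limit that a count of 0 allows, corresponded to between 0.206 and 0.298 CPM (counts per 1000000 counts of the library). Actb took 7.30% of the counts in its own library and 0.0889% and 0.0924% in the others, Malat1 was 5.81-fold higher in its own library and 3.84-fold higher in the Tfrc library than in the Actb library, and Tfrc was 2.69-fold higher in its own library and 2.32-fold higher in the Malat1 library. Set directly against each other, the Malat1 library held 1.51-fold the Malat1 share and 0.864-fold the Tfrc share of the Tfrc library. Lars2, a mitochondrial leucyl-tRNA synthetase gene, took between 17.0% and 32.0% of each library. Scaled by these totals, the median gene was 1.82-fold higher in the Malat1 library and 1.56-fold higher in the Tfrc library than in the Actb library (0.86 and 0.64 on the log2 scale), and 1.15-fold higher in the Malat1 library than in the Tfrc library. Markers of ES cells summed to between 3241 and 4527 CPM, those of fibroblasts to between 78.9 and 82.9, those of neural cells to between 21.5 and 25.8, those of endoderm to between 4.52 and 12.7, and those of erythroid cells to at most 0.096. Of the defining markers, Map2 and Hbb-b1 were at 0 in every library.

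Ribosomal protein genes took a small and similar share of each pull-down. They held 250492 counts in the Actb library, 278080 in the Malat1 library and 335418 in the Tfrc library. These were 2.41% of the Actb library (Wilson 95% interval 2.398% to 2.417%), 2.76% of the Malat1 library (2.749% to 2.769%) and 2.30% of the Tfrc library (2.297% to 2.312%). All intervals cover the counting of reads only, and they do not hold the spread between replicate pull-downs. Reads were not tagged by molecule, so repeated reads of the same molecule were each counted. Large-subunit genes held 63.6%, 63.0% and 62.5% of the counts of the ribosomal protein genes in the Actb, Malat1 and Tfrc libraries, so both subunits kept close to the same part of the counts. In a pull-down from bulk cells, fewer cells and less RNA per cell cannot be told apart.

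Levels were compared between genes only per kilobase. Per kilobase of coding transcript, the members other than the 4 paralogs ending in l had a median of 277 CPM per kb in the Actb library, 318 in the Malat1 library and 276 in the Tfrc library (n = 76). Of these 76 genes, 65, 63 and 65 lay within 3-fold of the median of their library, so most stood at similar levels. Rpl24 was the lowest of them in every library (24.3, 26.0 and 27.1 CPM per kb). Rpl36a was the highest in the Actb and Tfrc libraries (1153 and 1071 CPM per kb), and Rpl27, a large-subunit protein gene, was the highest in the Malat1 library (2261 CPM per kb).

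Per kilobase of merged exon, the highest in the Actb library were Rpl4 (1020.3 CPM per kb), whose protein lines the exit tunnel, Rpl32 (723), Rps24 (544), Rpl27 (544) and Rps23 (510). The lowest were Rpl3l (0.482), Rpl39l (10.1), Rpl24 (20.1), Rpl35a (25.6) and Rps15a (27.8). The merged exons of Rpl35a span 3526 nt, whereas its coding transcript is 519 nt long. Per kilobase of that transcript its level was 174, whereas Rpl24 (24.3) and Rps15a (34.0) stayed low on both scales. The coding transcripts used for these 2 genes are long (4999 and 5130 nt), and before division by length they stood at 121 and 174 CPM. The 2 scales ranked 80 genes alike in part (Spearman's rho 0.78 across genes, which share one library).

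**Figure D1:**
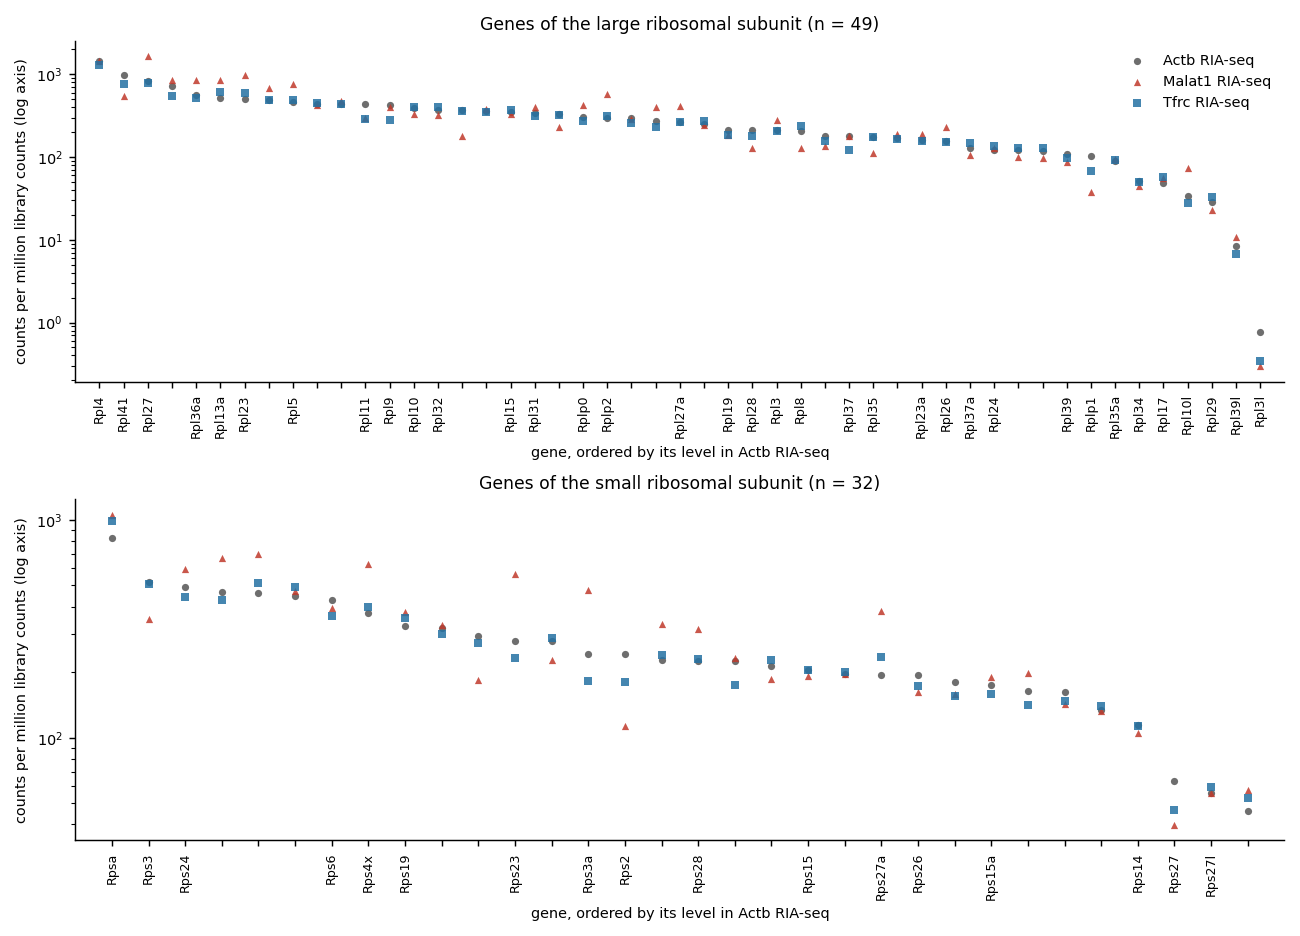
Level in CPM (log axis), which is not divided by length, of each ribosomal protein gene in the Actb (circles), Malat1 (triangles) and Tfrc (squares) libraries, with large-subunit genes above and small-subunit genes below, each ordered by the level in the Actb library and with the genes described in the text named. Tfrc values lie close to the Actb values for most genes, and Malat1 values scatter more widely around them, as at Rpl27 (835, 1655 and 780 CPM in the Actb, Malat1 and Tfrc libraries).

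The first comparison asks which RNAs came with Malat1, an RNA of nuclear speckles, more than with the control mRNA. The ribosomal protein genes together had a 1.15-fold higher share in the Malat1 library than in the Actb library (95% counting interval 1.14 to 1.15), which became 0.630-fold when the libraries were scaled to the median gene. By subunit the fold was 1.13 for the large-subunit genes and 1.17 for the small-subunit genes. The median member was at 1.02-fold (n = 80), with the middle of the members from 0.841 to 1.35, whereas the median of all 14572 genes that reached 10 counts in the pair was at 1.82-fold. Of the 80 members, 73 lay below that median gene. Each member was either higher (41) or lower (39) in the Malat1 library, and the counting interval held 1 for 16 of them. Of all genes, 88.7% were higher in the Malat1 library.

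At least 1.5-fold higher in the Malat1 library were 13 of the 80 members, where 65.6% of all genes were. At or under 1/1.5 were 9 members, where 2.81% of all genes were. With the libraries scaled to the median gene, 0 members were at least 1.5-fold higher (19.6% of all genes) and 54 were at or under 1/1.5 (20.4%). The scaling divides every gene by the same value, so it leaves the members' place among all genes as it was. On the scale of shares of the total the members fell on both sides of 1.

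Rps23, a protein of the decoding centre, stood at 279 CPM in the Actb library, 562 in the Malat1 library and 232 in the Tfrc library. Rpl27 stood at 835, 1655 and 780 CPM in the same order. Rps3a, a small-subunit protein that contacts initiation factors, stood at 243, 475 and 182 CPM. In each of the 3 genes the Malat1 library was well above both others. Their folds in Malat1/Actb were 2.02 (1.93 to 2.11), 1.98 (1.93 to 2.04) and 1.96 (1.86 to 2.05). Rps27a, which encodes ubiquitin fused to a small-subunit protein, stood at 194, 382 and 235 CPM, which was 1.97-fold (1.87 to 2.08). Rpl23, a large-subunit protein, stood at 510, 972 and 593 CPM, which was 1.91-fold (1.84 to 1.97). These genes with Rplp2 and Rpl10l, given below, were the 7 members above the median gene. Of the 41 members above 1, the other 34 lay below 1 once the libraries were scaled to that gene. The other genes at least 1.5-fold higher, which included Rpl5, Rpl13a, Rpl27a, Rpl36a and Rps4x, were among these 34, with Rpl5 at 0.927-fold and Rpl13a at 0.905-fold after scaling.

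Among the lowest folds were those of genes that kept moderate counts in every library. Rps2, at the mRNA entry of the small subunit, stood at 243 CPM in the Actb library, 113 in the Malat1 library and 180 in the Tfrc library (Malat1/Actb fold 0.467, 0.435 to 0.501). Rps2 had 26 pseudogene copies, which held 4367 counts in the Actb library against 2526 of the gene, and with them its fold was 0.740, no longer at or under 1/1.5. Rpl41, the smallest ribosomal protein, stood at 974, 544 and 765 CPM (0.558, 0.540 to 0.577). The Malat1 library was the lowest of the 3 in both genes. Rpl28 stood at 213, 128 and 178 CPM (0.601, 0.561 to 0.644). Rps27 stood at 63.3, 39.9 and 46.4 CPM (0.630, 0.556 to 0.713). Rpl8, Rpl35 and Rplp1, which were also at or under 1/1.5, are described with their roles.

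**Figure D2:**
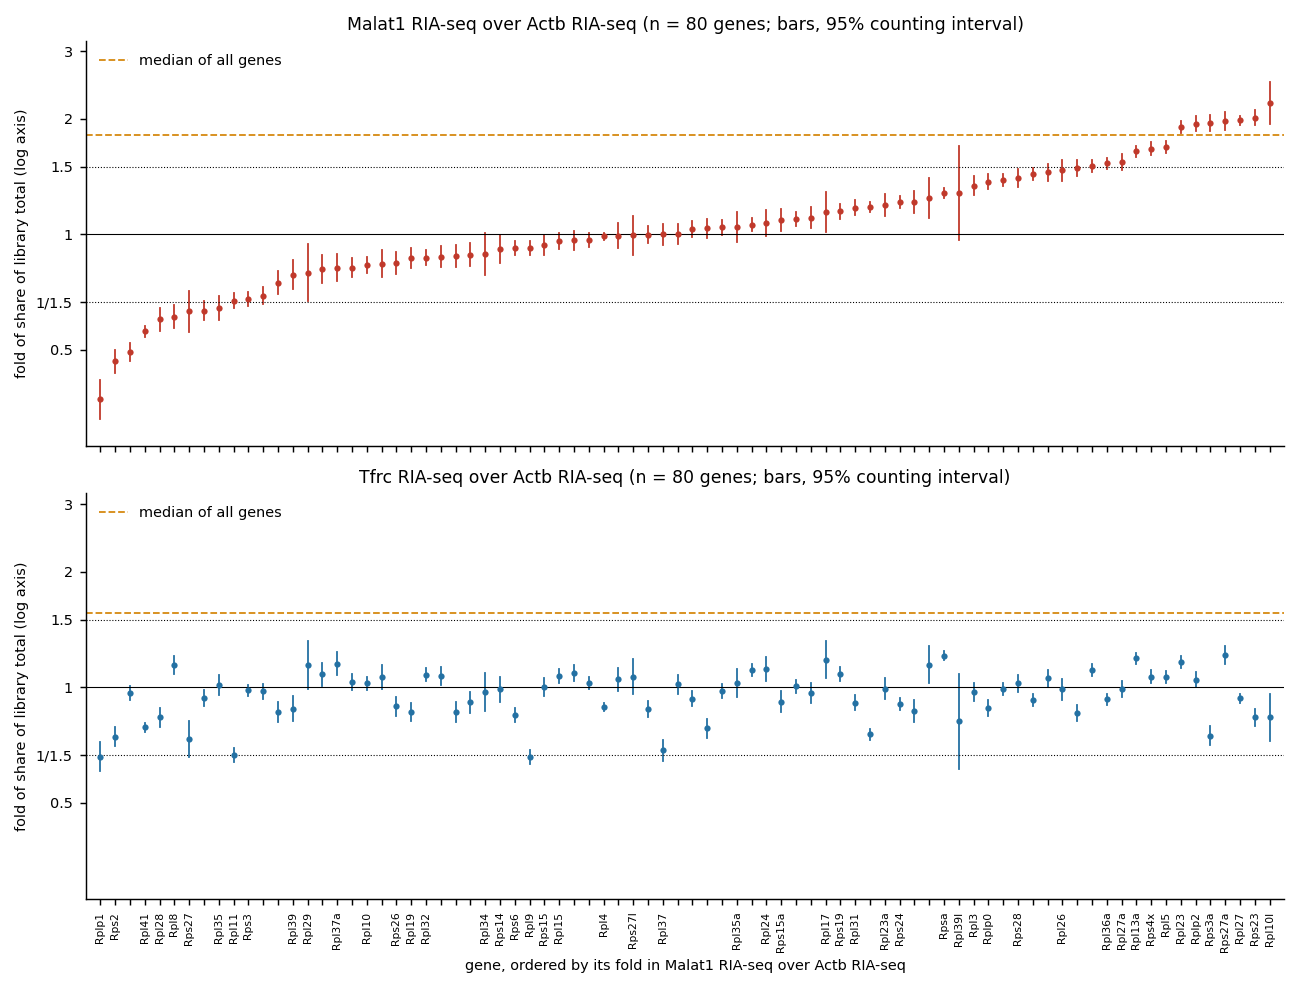
Fold of the share of the library total (log axis) for each of 80 ribosomal protein genes in Malat1/Actb (above) and Tfrc/Actb (below), in the same gene order and with the genes described in the text named, with 95% counting intervals as bars, dotted lines at 1.5 and 1/1.5 and a dashed line at the median of all genes. In the upper panel genes run from 0.371 to 2.21 around 1 while the median gene is at 1.82, and in the lower panel every gene lies under the median gene at 1.56 and between 0.658 and 1.21.

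The second comparison asks the same for Tfrc, and it shares the Actb library with the first. The summed share of the ribosomal protein genes in the Tfrc library was 0.957-fold that in the Actb library (0.952 to 0.962), and 0.614-fold when the libraries were scaled to the median gene. On rows under Ensembl identifiers alone, against the total of those rows, it turned to 1.05-fold. Large-subunit genes were at 0.940-fold and small-subunit genes at 0.987-fold. The median member was at 0.978-fold (n = 80) against 1.56-fold for all 14691 genes, and all 80 members with at least 10 counts lay below the median gene. Their folds were also less scattered than those of other genes, with an SD of 0.21 on the log2 scale against 0.65 for all genes, whereas in Malat1/Actb these SDs were 0.53 and 0.74. The members were well counted, since 79 of the 81 had at least 100 counts in every library, and the part of depth in this difference was not tested.

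No member was at least 1.5-fold higher in the Tfrc library, where 53.3% of all genes were, and 3 members were at or under 1/1.5, where 1.82% of all genes were. These 3 were Rplp1, Rpl9 and Rpl11. With the libraries scaled to the median gene, 0 members were at least 1.5-fold higher (18.5% of all genes) and 55 were at or under 1/1.5 (15.3%). Rpl9, a large-subunit protein, stood at 432 CPM in the Actb library, 399 in the Malat1 library and 284 in the Tfrc library, so its Tfrc/Actb fold was 0.658 (0.631 to 0.687). The next lowest were Rpl37 (179, 179 and 123 CPM, fold 0.684) and Rps27 (fold 0.733). At the upper end, Rpsa, a small-subunit protein also known as a laminin receptor, stood at 823, 1054 and 992 CPM, and its Tfrc/Actb fold was 1.21 (1.17 to 1.24). The other genes of the upper end were Rps27a at 1.21-fold, Rpl13a at 1.19-fold, Rpl17 at 1.18-fold and Rpl23 at 1.16-fold. For all 5 of these genes, scaling to the median gene moved the Tfrc/Actb fold below 1.

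Malat1 RIA-seq was also set directly against Tfrc RIA-seq, which leaves the Actb library out. The ribosomal protein genes had a 1.20-fold higher summed share in the Malat1 library (1.19 to 1.20), and 1.04-fold with the libraries scaled to the median gene. The median member was at 1.06-fold (n = 80) and the median of all 16430 genes at 1.15-fold. At least 1.5-fold higher were 16 members, where 17.1% of all genes were, so the share of members was close to the background. At or under 1/1.5 were 5 members, where 6.8% of all genes were. With the libraries scaled to the median gene these counts were 6 (8.67% of all genes) and 13 (12%). The SD of the members' log2 folds, 0.51, was that of all genes, 0.51. The highest folds were those of Rpl10l (2.65), Rps3a (2.62), Rps23 (2.42), Rpl27 (2.12) and Rplp2 (1.86), and among the lowest were those of Rpl8 (0.534), Rplp1 (0.564), Rps2 (0.628) and Rpl35 (0.636).

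**Figure D3:**
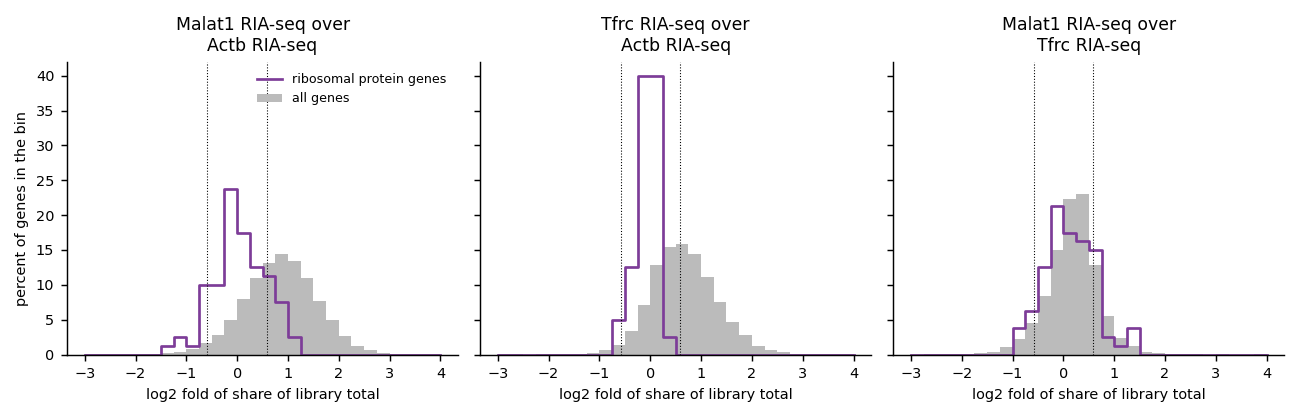
Percent of genes in each bin of log2 fold of the share of the library total, for all genes that reached 10 counts in the pair (grey bars) and for the ribosomal protein genes (line), with dotted lines at 1.5-fold and 1/1.5; the end bins hold the genes beyond them. The members centre on 1.02-fold and 0.978-fold in the comparisons with Actb RIA-seq, to the left of all genes (medians 1.82 and 1.56), and overlap all genes in Malat1/Tfrc (medians 1.06 and 1.15).

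By role, and on the scale of shares of the total, most functional groups with several genes had folds on both sides of 1 in Malat1/Actb. With the libraries scaled to the median gene, only Rplp2, Rps23 and Rps27a of the genes given by role stayed above 1 there. Rps2 and Rps3 at the mRNA entry were both below 1. Rps19 and Rps24, which are only part of a larger group, were both above it. In the acidic stalk, Rplp0, the base of the stalk, stood at 309 CPM in the Actb library, 424 in the Malat1 library and 273 in the Tfrc library. Rplp2 stood at 299, 582 and 313 CPM. Rplp1, its partner in the stalk, stood at 102, 37.8 and 67.0 CPM. The folds in Malat1/Actb were 1.37 (1.31 to 1.44), 1.94 (1.86 to 2.03) and 0.371 (0.330 to 0.417), so Rplp1 and Rplp2, whose proteins pair in the stalk, lay on opposite sides of 1, and the copy of Rplp1 described below bears on that. In Tfrc/Actb the folds were 0.883, 1.05 and 0.658.

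The genes of the 5S particle also parted. Rpl5 stood at 457 CPM in the Actb library, 772 in the Malat1 library and 487 in the Tfrc library. Rpl11 stood at 436, 293 and 289 CPM. Rpl5 was thus 1.69-fold (1.63 to 1.75) and Rpl11 0.672-fold (0.642 to 0.704) in Malat1/Actb. In Tfrc/Actb they were at 1.06-fold and 0.663-fold.

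Proteins next to the peptidyl transferase centre include Rpl3, Rpl8 and Rpl10. Rpl3 stood at 212, 284 and 206 CPM in the Actb, Malat1 and Tfrc libraries, Rpl8 at 209, 127 and 239, and Rpl10 at 396, 329 and 405. Rpl8 was at 0.610-fold (0.569 to 0.653) in Malat1/Actb and at 1.14-fold (1.08 to 1.21) in Tfrc/Actb. Of the genes whose proteins line the exit tunnel, Rpl4 was at 0.988-fold (0.966 to 1.01) and 0.887-fold, Rpl17 at 1.15-fold and 1.18-fold, and Rpl39 at 0.786-fold and 0.879-fold in Malat1/Actb and Tfrc/Actb. Around the tunnel's exit, where nascent chains meet chaperones, the folds in Malat1/Actb ran from 0.643 (Rpl35) and 0.868 (Rpl19) over 1.17 (Rpl31) and 1.20 (Rpl23a) to 1.47 (Rpl26). Those in Tfrc/Actb lay between 0.861 (Rpl19) and 1.01 (Rpl35).

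In the small subunit, Rps6, the substrate of S6 kinase, stood at 430, 396 and 364 CPM in the Actb, Malat1 and Tfrc libraries, and was at 0.920-fold (0.881 to 0.960) in Malat1/Actb. Rps3, which lies with Rps2 at the mRNA entry, stood at 517, 351 and 507 CPM and was at 0.679-fold (0.651 to 0.708). On the platform, near where mRNA leaves, Rpsa was at 1.28-fold, Rps28 at 1.40-fold and Rps26 at 0.841-fold. In the decoding centre, Rps23 at 2.02-fold stood beside Rps15 at 0.939-fold. Rps19 (1.15-fold) and Rps24 (1.22-fold) are among the genes whose human counterparts are mutated in Diamond-Blackfan anaemia, an inherited failure of red cell production. The other genes of that disease were not gathered here, so these values do not describe it as a group. In Tfrc/Actb these small-subunit genes lay between 0.743-fold (Rps2) and 1.21-fold (Rpsa).

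Reads from ribosomal protein mRNAs cannot always be told apart from those of similar genes, processed pseudogenes among them. Another gene of any kind matched at least 100 nt at 95% identity or more for 71 of the 80 annotated members. Some of the 71, such as Rpl11 and Rpl32, had no pseudogene among their matches. The annotation held 366 pseudogene copies that matched a member to this extent. Their counts equalled 30.6%, 31.6% and 29.5% of those of the members in the Actb, Malat1 and Tfrc libraries. Rplp1 (chr9:61761091-61762345, minus strand, NCBIM37) had 1 such pseudogene copy, which took most of the joint counts. Its 495-nt mRNA matches the pseudogene Gm11942 (chr4:33051739-33052247, plus strand) at 97.8% identity over 495 nt. Rplp1 had 1060 counts in the Actb library, 381 in the Malat1 library and 975 in the Tfrc library, while Gm11942 had 2855, 7899 and 4056. The pseudogene thus held more counts than the gene in every library, and their directions in Malat1/Actb were opposite. Gm11942 was 2.86-fold higher in the Malat1 library than in the Actb library, and the gene and its copy together were 2.18-fold higher. In Tfrc/Actb the pair together was at 0.919-fold. The low fold of Rplp1 therefore cannot be told apart from a different split of reads between the gene and its copy.

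Adding the copies moved the fold in Malat1/Actb by more than 1.5 times for 4 of the 80 members. Besides Rplp1 these were Rps2 (from 0.467 to 0.740), Rpl34 (from 0.888 to 1.56) and Rpl29 (from 0.794 to 0.480). In Tfrc/Actb it moved 0 members that far. With copies added, 16 of the 80 members were at least 1.5-fold higher and 8 at or under 1/1.5 in Malat1/Actb. Of all genes, on their own counts, 65.6% and 2.81% were. Rpl10l kept the highest fold. The 8 members with enough counts and no other gene of any kind matching to that extent ran from 0.610-fold to 1.45-fold in Malat1/Actb (median 1.02), and from 0.780-fold to 1.14-fold in Tfrc/Actb. Of these 8, 0 were at least 1.5-fold higher in the Malat1 library, where 65.6% of all genes were. At or under 1/1.5 were 2, Rpl8 among them, where 2.81% of all genes were.

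The tables list part of the reads of a gene under the reference name Genome in place of its Ensembl identifier. Such rows held few of the counts of ribosomal protein genes. They held 1.08% in the Actb library (Wilson 95% interval 1.04% to 1.12%), 3.06% in the Malat1 library (3.00% to 3.12%) and 2.35% in the Tfrc library (2.30% to 2.40%). All other genes had 5.36%, 19.5% and 15.4% of their counts there. The order of the libraries was the same for members and for other genes, with the Actb library lowest and the Malat1 library highest.

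On Genome rows, the members' summed share of the library total was 3.24-fold higher in the Malat1 library (3.11 to 3.39) and 2.08-fold higher in the Tfrc library (2.00 to 2.18) than in the Actb library. At least 1.5-fold higher on these rows were 61 of 64 members in the Malat1 library, where 94.7% of all genes were, and 52 of 64 in the Tfrc library, where 90.4% of all genes were. In Malat1/Tfrc, 40 of 71 members were, where 30.8% of all genes were. Against the total of the Genome rows alone, the members' share in the Malat1 library was 0.896-fold and in the Tfrc library 0.726-fold that in the Actb library, whereas in Malat1/Tfrc it was 1.23-fold. The median member on Genome rows was below the median of all genes in both comparisons with Actb (3.21 against 3.60, and 2.07 against 2.86) and above it in Malat1/Tfrc (1.64 against 1.28). Against the total of the Genome rows, Rps23 (0.936), Rps3a (0.855), Rplp2 (0.890) and Rpl23 (0.735) turned below 1 in Malat1/Actb, with between 46 and 128 counts each on the Genome rows of the Malat1 library.

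Single genes differed widely in their Genome share. Rpl29 had 14.7%, 40.9% and 21.2% of its counts on Genome rows in the Actb, Malat1 and Tfrc libraries. Rpl3, which holds snoRNAs in its introns, had 11.8%, 34.0% and 24.3%. Rpl17 had 5.38%, 17.8% and 10.5%. The Malat1 library was the highest in each of them, and it was also the highest for Rpl37a (16.2%) and Rps14 (15.0%). Median shares were 2.39% for the 30 members that hold a snoRNA and 2.40% for the 50 that do not in the Malat1 library, and 2.09% and 1.75% (n = 30 and 49) in the Tfrc library. Members with more intron sequence had a higher Genome share, with Spearman's rho of 0.48, 0.45 and 0.52 across 78, 79 and 78 genes that share one library.

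**Figure D4:**
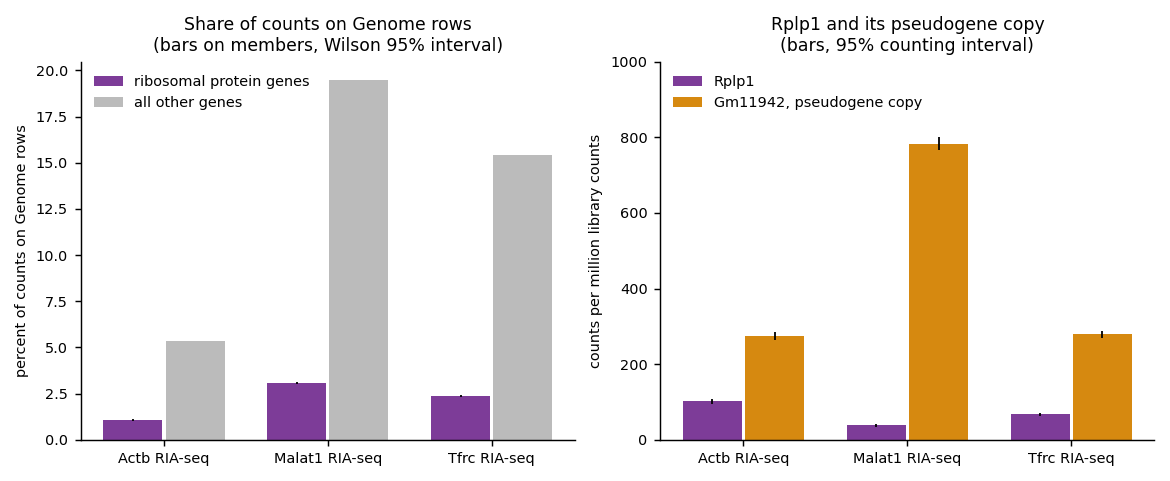
Left, percent of counts on Genome rows for the ribosomal protein genes (with Wilson 95% intervals) and for all other genes in each library; members stay at or under 3.06% where other genes reach 19.5%. Right, level in CPM of Rplp1 and of its pseudogene copy Gm11942 in each library with 95% counting intervals; Rplp1 is lowest in the Malat1 library, at 37.8 CPM, where Gm11942 is highest.

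The members' mRNAs are short, with a median of 831 nt against 2584 nt for other coding genes. Folds moved with length across coding genes in the comparisons with Actb RIA-seq. Across other coding genes Spearman's rho between fold and length was 0.27 in Malat1/Actb, 0.31 in Tfrc/Actb and 0.01 in Malat1/Tfrc. Other coding genes with mRNAs of at most 1 kb had a median of 1.25-fold in Malat1/Actb (n = 934) and 1.12-fold in Tfrc/Actb (n = 952). Those over 4 kb had medians of 2.06-fold and 1.78-fold. Among 205 other short mRNAs with a mean of at least 500 counts the medians were 1.15-fold and 1.05-fold, and 25.9% and 11.2% of them were at least 1.5-fold higher. The members' medians of 1.02 and 0.978 were thus nearer to those of short and abundant mRNAs than to the median gene, and the part of length in the members' folds was not tested.

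Base composition moved with the members' folds in the comparisons that hold the Malat1 library. Of the 31 members with G+C under 50%, 8 were at least 1.5-fold higher and 0 at or under 1/1.5 in Malat1/Actb. Of the 29 members at 50% to 55% these were 3 and 2, and of the 19 members over 55% they were 2 and 6. Over all genes, 65.6% were at least 1.5-fold higher and 2.81% at or under 1/1.5. The median member of the 3 classes was at 1.09-fold, 1.06-fold and 0.839-fold, where the median other coding gene was at 1.88-fold, 1.84-fold and 1.69-fold. Rpl5, with 42.7% G+C, was among the members at least 1.5-fold higher, and Rpl28, with 60.4%, was among those at or under 1/1.5. Across the 79 members Spearman's rho between fold and G+C was -0.32 in Malat1/Actb, -0.36 in Malat1/Tfrc and 0.04 in Tfrc/Actb. For other coding genes the values were -0.09, 0.05 and -0.14. These points share libraries, and the part of base composition in the result was not tested.

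**Figure D5:**
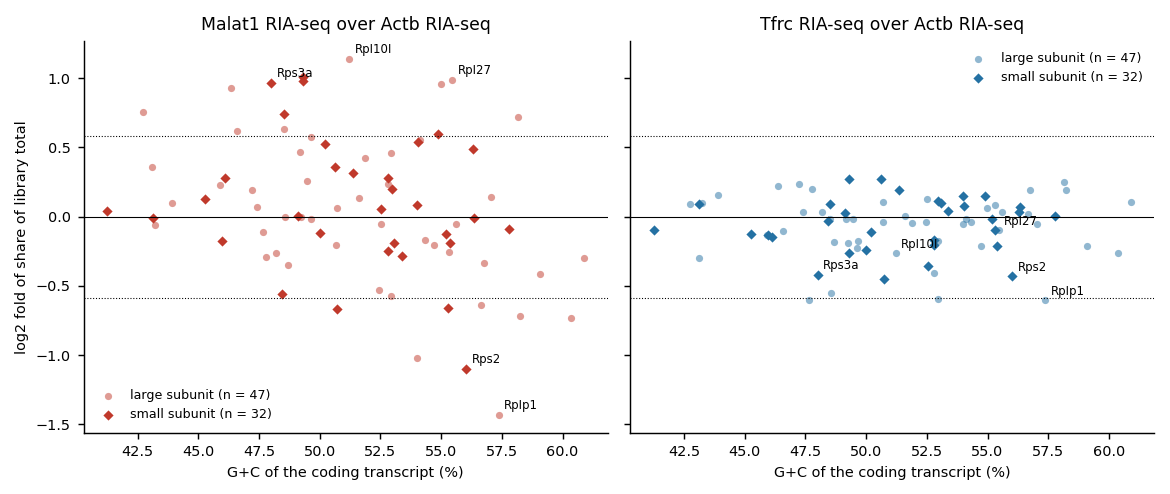
Log2 fold of the share of the library total against the G+C content (%) of the coding transcript for 79 ribosomal protein genes, in Malat1/Actb (left) and Tfrc/Actb (right), with large-subunit genes as pale circles, small-subunit genes as dark diamonds, dotted lines at 1.5-fold and 1/1.5, and 5 genes named. On the left the genes below the lower line lie at a G+C content above 50%, and on the right the points form a band around 0 (rho 0.04).

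The paralogs ending in l stood below their parent genes in level. Per kilobase of coding transcript in the Actb library, Rpl10l stood at 32.9 CPM per kb against 463 of Rpl10, Rpl39l at 10.4 against 180 of Rpl39, Rps27l at 97.1 against 184 of Rps27, and Rpl3l at 0.56 against 156 of Rpl3. Rpl10l (chr12:67384368-67385388, minus strand, NCBIM37), a retrogene without introns known for its work in male germ cells, has the same coding length as Rpl10 (645 nt) and is 84.8% identical to it. The first 30 coding bases of each are shown because reads must tell the pair apart by such bases, with differing bases in capitals.
Rpl10l: atgggTcgTcgTccGgcTcgCtgttaccgg
Rpl10: atgggCcgCcgCccCgcCcgGtgttaccgg
They differ at 6 of these 30 bases. Rpl10l had 350 counts in the Actb library, 748 in the Malat1 library and 408 in the Tfrc library, and Rpl10 had 4116, 3318 and 5888. Rpl10l was 2.21-fold (1.94 to 2.51) and Rpl10 0.832-fold (0.795 to 0.871) in Malat1/Actb, and they were at 0.833-fold (0.723 to 0.961) and 1.02-fold (0.983 to 1.06) in Tfrc/Actb. The paralog and its parent were thus on opposite sides of 1 in Malat1/Actb, whereas in Tfrc/Actb the interval of Rpl10 held 1.

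Rpl39l, 85.3% identical to Rpl39 in its coding sequence, had 87, 108 and 99 counts in the Actb, Malat1 and Tfrc libraries, where Rpl39 had 1148, 874 and 1412. Its interval held 1 in Malat1/Actb (1.28, 0.966 to 1.70). Rps27l had 581, 560 and 864 counts, where Rps27 had 659, 402 and 676. The coding sequences compared for this pair differ in length (318 and 255 nt), so no percent identity is given for it. Rps27l was at 0.995-fold and Rps27 at 0.630-fold in Malat1/Actb. Rpl3l, the form of heart and skeletal muscle, had 8, 3 and 5 counts against 2203, 2859 and 2991 of Rpl3, and it was the one member too low for a fold.

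Other genes of translation were described beside the members. The ribosomal proteins and paralogs outside the naming pattern (such as Fau, Gnb2l1, Rpl22l1, Rpl7l1 and Rpl36al) had a median of 1.17-fold in Malat1/Actb and 0.990-fold in Tfrc/Actb (n = 6). The 15 other TOP mRNAs, of elongation and initiation factors and the like, had medians of 1.07-fold and 0.990-fold, close to those of the members, from 0.740-fold (Eef1a1) to 2.22-fold (Eef1d) in Malat1/Actb. Of these, Eef1d and Npm1 (1.77-fold) were at least 1.5-fold higher in Malat1/Actb, and Npm1 alone (1.83-fold) in Tfrc/Actb, where 65.6% and 53.3% of all genes were. The 76 genes of the mitochondrial ribosome had medians of 1.41-fold and 1.17-fold, and 34 and 11 of them were at least 1.5-fold higher in Malat1/Actb and Tfrc/Actb, so a smaller share than the 65.6% and 53.3% of all genes. Their extremes were Mrps26 at 3.98-fold and Mrps12 at 0.705-fold in Malat1/Actb, and Mrpl48 at 2.95-fold in Tfrc/Actb. Under scaling to the median gene every one of these medians lay below 1.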

How the data were processed

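The values are counts of reads per gene. The authors deposited 1 table of raw counts per library, with up to 2 rows per gene, 1 under its Ensembl identifier and 1 under the reference name Genome, and cDNA had been made with the Ovation V2 kit. The submitters' processing notes name Bowtie 0.12.7 and the mouse builds mm9 and NCBIM37. How reads that match several places or the Genome rows were counted is not given in the sources used here. Both rows of a gene were summed, divided by the library total and compared as a ratio without a pseudocount, with a 95% counting interval on the log scale. A gene with at least 10 counts in both libraries entered the counts at 1.5-fold. With 1 library per group no test was run. Lengths, introns and copies (BLAST+ 2.17.0) came from GENCODE vM1, which holds 80 of the 81 members and not Rpl41, and starts from RefSeq. The calculation of the fold and its interval was checked on simulated counts in Python 3.11.15 (numpy 2.4.6, pandas 2.3.3, scipy 1.17.1). The simulated counts held no spread between pull-downs and no reads shared with copies, so this check covers the calculation only. Alternatives changed the scaling, the pseudocount, the minimum count, the rows and the members. Genes were named by role and by rank: the 5 highest and 5 lowest in fold (at least 100 counts in both libraries) and in level, the 5 highest in Genome share, and the paralogs ending in l. Genes at 1.5-fold or past it and those that copies moved were named after their values were seen. Some genes that these rules name are not reported here. The members and lists were chosen with earlier results of these data known.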

Additional observations from a re-analysis of the deposited data

How the results depend on the processing

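No paired analysis was possible because each group is 1 library, and no library could be left out. The minimum of 50 counts, no minimum, a pseudocount of 1 and leaving out the members ending in l moved each count by at most 2 and each summed share by less than its counting interval. The summed share in Malat1 over Actb RIA-seq (1.15) was 0.630 scaled to the median gene, 0.717 with a total without the 10 genes with the most counts, 1.07 without Actb, Malat1 and Tfrc, 1.31 on Ensembl rows, 0.896 on Genome rows (each against the total of its rows), 1.14 with named pseudogenes added and 1.15 with pseudogene copies, an alternative chosen after seeing the data. In Tfrc over Actb RIA-seq (0.957) these were 0.614, 0.682, 0.893, 1.05, 0.726 and, with copies, 0.949. In Malat1 over Tfrc RIA-seq (1.20) they were 1.04, 1.05, 1.25 on Ensembl rows, 1.23 on Genome rows and 1.22 with copies. The counts at 1.5-fold or more and at 1/1.5 or less moved as follows. In Malat1 over Actb RIA-seq (13 and 9) they were 0 and 54 scaled to the median gene, 0 and 45 without the 10 genes, 8 and 16 on Genome rows, 34 and 26 of 180 (against 13 and 9 of 80) with named pseudogenes as members, and 20 higher on Ensembl rows. In Tfrc over Actb RIA-seq (0 and 3) lower counts were 55, 34, 26, 11, 0 on Ensembl rows and 1 with copies, and higher counts were 1 on Genome rows and 2 with named pseudogenes (of 182, as are the 11 lower). In Malat1 over Tfrc RIA-seq (16 and 5) they were 6 and 13 for both scalings, 25 and 3 on Genome rows and 44 and 17 of 182 with named pseudogenes. Genome shares with named pseudogenes were 1.46%, 3.77% and 2.67%. Scaling to the median gene put below 1 34 of the 41 members above it in Malat1 over Actb RIA-seq (Rpl13a at 0.905 and Rpl5 at 0.927 among them), 34 of 34 in Tfrc over Actb RIA-seq and 14 of 45 in Malat1 over Tfrc RIA-seq, and the summed share in Tfrc over Actb RIA-seq turned above 1 on Ensembl rows. On Genome rows they turned there for Rpl23 (0.735), Rplp2 (0.890), Rps23 (0.936) and Rps3a (0.855), and in Malat1 over Tfrc RIA-seq for Rpl23 (0.898), Rpl35 (1.09), Rpl5 (0.934), Rpl8 (1.36), Rplp1 (1.15), Rps2 (1.10) and Rps23 (0.893). With copies they turned for Rplp1 (2.18 over Actb and 2.38 over Tfrc RIA-seq) and Rps2 (1.09 over Tfrc RIA-seq). These moves came with a change of the total, of the rows or of the counts added to the members, and no cause beyond that was tested. Depth limited Rpl3l, and the 23 snoRNA genes inside members, most of which had under 10 counts.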

Other observations

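The 140 listed pseudogenes named after a ribosomal protein gene held 36685 counts in the Actb library, 38955 in the Malat1 library and 47363 in the Tfrc library, which equalled 14.6%, 14.0% and 14.1% of the counts of the ribosomal protein genes. Their median fold was 1.04 in Malat1/Actb (100 with at least 10 counts in both) and 0.987 in Tfrc/Actb (102), close to those of the genes they copy. Of these, 21 and 2 were at least 1.5-fold higher, where 65.6% and 53.3% of all genes were, and 17 and 8 were at or under 1/1.5, where 2.81% and 1.82% of all genes were. Their extremes in the Malat1 library were Rpl21-ps1 at 2.82-fold and Rpl29-ps5 at 0.269-fold. Reads of a pseudogene and of its parent cannot always be told apart.

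The snoRNAs inside ribosomal protein genes were hardly counted. Of 58 annotated, 23 were listed, and they summed to 69 counts in the Actb library, 140 in the Malat1 library and 186 in the Tfrc library. The one with at least 10 counts in every library was the SNORA73 gene in Rpsa, with 20, 42 and 73 counts, a fold of 2.17 (1.27 to 3.69) in the Malat1 library and 2.61 (1.59 to 4.28) in Tfrc/Actb.

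The 13 members with a pyrimidine tract at an annotated start had a median of 0.961-fold in Malat1/Actb, and the 46 other members with an annotated start and enough counts a median of 1.09-fold. In Tfrc/Actb these medians were 0.975 and 0.969.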
